A study of Homo sapiens with 16 samples.

Results

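The 10 protein-coding genes described here belong to the YAP-TEAD pathway: 3 textbook target genes (CTGF, CYR61 and ANKRD1), 4 regulators (AMOTL1, AMOTL2, LATS2 and AJUBA) and 3 parts of the transcription complex (YAP1, WWTR1 and TEAD1). They were chosen by symbol from 19951 protein-coding genes among 58735 genes in all, each symbol was found once, and all 10 passed the filter on low values in the fits as designed. NCI-H1975 is a human lung adenocarcinoma line, and its untreated control cells were compared with cells given magnolin, a lignan of magnolia buds, or the chloroform part of an extract of Flos Magnoliae, the dried buds themselves. Each of the 3 groups had 4 libraries, labelled wild type, and the labels give no dose, no time and no vehicle for the control. Parental HCC827, a second lung adenocarcinoma line, had 2 libraries, and the HCC827AR cells of the series, labelled as afatinib resistant, are not analysed here.

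YAP1 and WWTR1 (whose protein is called TAZ) are co-activators without a DNA-binding domain of their own, and they act on genes by binding TEAD proteins. In the Hippo pathway the kinases LATS1 and LATS2 phosphorylate YAP and TAZ, which holds them in the cytoplasm, while angiomotin proteins such as AMOTL1 and AMOTL2 bind them directly and AJUBA holds LATS kinases back. CTGF and CYR61 (now named CCN2 and CCN1) encode secreted matrix proteins, ANKRD1 encodes an ankyrin repeat protein, and all of them, together with AMOTL2 and LATS2 as feedback genes, are known to respond to YAP in epithelial and lung cancer cells.

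CTGF (ENSG00000118523) lies on chromosome 6 of hg38 from 131948176 to 131951373 on the minus strand. Its promoter is shown because CTGF had the largest change against control in set B (described with the levels) and, of the members with a promoter entry, the most matches to the TEAD motif. In the RefSeq promoter tables (GRCh38.p14), 8 of the 10 members had an entry, with 11 windows of 300 bases in all, and CYR61 and TEAD1 had none. The sequence GGAATG, searched for TEAD on both strands, was found in 1 window each of 6 members. The 250 bases before the CTGF start site, chr6:131951373-131951622 on the minus strand, are given 5′ to 3′ with each match in capitals.
CTGF: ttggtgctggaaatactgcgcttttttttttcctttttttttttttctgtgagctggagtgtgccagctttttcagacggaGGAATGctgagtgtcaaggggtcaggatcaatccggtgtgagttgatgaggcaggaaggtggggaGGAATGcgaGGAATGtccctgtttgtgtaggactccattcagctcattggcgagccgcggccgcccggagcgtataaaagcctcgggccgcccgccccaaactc
The first bases of the 3 matches lie 169, 104 and 95 bases before the start site. Of 35116 promoter windows, 14.0% held at least 1 match, 1.37% at least 2 and 0.128% at least 3. A match is a description of the letters and does not show that a TEAD protein binds there.

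ANKRD1 held 2 matches, and it was the only member whose window matched TGANTCA, the letters searched for AP-1 on both strands, which 7.71% of windows held. The AP-1 and TEAD letters did not overlap. Stretches of 30 bases around the matches of ANKRD1 and of the other members that passed a test are given 5′ to 3′ with the match in capitals, at chr10:90921290-90921319, chr10:90921265-90921294 and chr10:90921198-90921227 (minus strand), chr11:102110273-102110302 (plus strand) and chr14:22976884-22976913 (minus strand, at the second of 2 AJUBA start sites).
ANKRD1 TEAD, first match: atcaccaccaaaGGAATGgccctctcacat
ANKRD1 AP-1: cacatttcttccTGATTCAcatattcagca
ANKRD1 TEAD, second match: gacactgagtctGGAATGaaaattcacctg
YAP1 TEAD: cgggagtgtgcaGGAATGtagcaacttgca
AJUBA TEAD: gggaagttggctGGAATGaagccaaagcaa
These matches begin 220, 195, 128, 162 and 59 bases before their RefSeq start sites. The deposited annotation places the start of ANKRD1 at 90921276. By that annotation its second TEAD stretch lies within the gene and its AP-1 stretch spans the start. The other matches were 1 in AMOTL2 and 1 in LATS2, where it lies after the start site. None was found in the windows of AMOTL1 and WWTR1.

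Levels are in FPKM, reads per kilobase of gene scaled to the library, so they may be compared between genes. The 12 NCI-H1975 libraries were deposited as 2 separately scaled tables, replicates 1 and 2 of each group (set A) and replicates 3 and 4 (set B), and HCC827 as another. Tests were therefore made within a set, and levels set across tables are descriptions. Nothing in the labels says that replicates came from separate cultures, so a p-value here covers only the spread among these libraries, and that spread may be technical. Reads on genes, rebuilt from the values, were 18392377 to 21312671 per library in set A, 15962587 to 17039090 in set B and 15863416 to 16383921 in HCC827. Mitochondrial transcripts took 5.84% and 5.83% of the set B control reads, 6.40% and 6.38% with magnolin and 8.17% and 7.04% with the chloroform fraction. KRT7, KRT8, KRT18, KRT19 and EPCAM, which mark epithelial cells, were present in every library. SFTPC, a marker of alveolar cells, was near 0 in all of them. SFTPB and NAPSA, also among the lung epithelial markers, reached 0.261 and 0.446 FPKM in NCI-H1975. In HCC827 they were at 2.17 to 5.40 and 53.3 to 54.2 FPKM. NKX2-1, a lung lineage factor, reached 9.06 FPKM in NCI-H1975 against 52.0 to 55.9 in HCC827. PTPRC and CD3E, which mark leukocytes, were at or near 0. CD79A, another leukocyte marker, reached 3.73 FPKM in NCI-H1975, and the endothelial markers CDH5 and PECAM1 reached 4.39 and 1.82.

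In set B, CTGF was lower with both treatments. CTGF was at 22.7 and 21.6 FPKM in the control libraries, 11.6 and 10.9 with magnolin and 7.32 and 9.08 with the fraction. The 3 groups did not overlap, and every fraction library lay below every magnolin library. The fraction group fell by 1.34 (SE 0.110, 95% interval -1.6 to -1.07) on the scale of log2(FPKM + 1), from 22.1 ± 0.812 to 8.20 ± 1.24 FPKM (SD, n = 2 each, limma across all genes, adjusted p = 0.00148). The magnolin group fell by 0.92 (SE 0.110) to 11.3 ± 0.540 FPKM (limma, adjusted p = 0.0355). Between the treatments the fraction differed from magnolin by -0.42 (SE 0.110), which missed the threshold (limma, adjusted p = 0.0538). In bulk RNA, fewer cells with the transcript and less transcript per cell cannot be told apart. In each of 13 alternatives the fraction call stood, with adjusted p between 6.02e-07 and 0.0197. The magnolin call was lost with no filter (limma, adjusted p = 0.14), as well as when 1 library was left out, be it replicate 3 (0.29) or 4 (0.208) of the control or replicate 3 (0.152) or 4 (0.246) of magnolin. The fraction against magnolin passed without fraction replicate 4 (limma, adjusted p = 0.0221) and among genes with a mean of at least 5 FPKM (0.0252).

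CYR61, the close relative of CTGF and the most abundant member, passed neither test against control. CYR61 was at 88.7 and 88.5 FPKM in the set B control libraries, 93.5 and 106 with magnolin and 92.1 and 107 with the fraction. Both treated groups lay above the controls and overlapped each other. The fraction differed from control by 0.16 (SE 0.0991, 95% interval -0.08 to 0.40, limma, adjusted p = 0.306) and magnolin by 0.17 (SE 0.0991, limma, adjusted p = 0.519), so neither passed. The interval of the fraction change for CYR61 lies wholly above that for CTGF, which is a description since no test of the difference between the genes was made. The ratio of CYR61 to CTGF was 3.90 and 4.10 in the control libraries, 8.04 and 9.77 with magnolin and 12.6 and 11.7 with the fraction. The 3 groups were thus separate in this ratio as well.

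ANKRD1 passed the test between the treatments but neither test against control. ANKRD1 was at 9.81 and 9.92 FPKM in the set B control libraries, 11.5 and 15.7 with magnolin and 7.26 and 8.62 with the fraction. The magnolin libraries lay above the controls and the fraction libraries below them. Against control neither change passed, at 0.41 for magnolin (SE 0.152, limma, adjusted p = 0.309) and -0.29 for the fraction (SE 0.152, limma, adjusted p = 0.243). Between the treatments ANKRD1 was lower with the fraction (-0.70, SE 0.152, limma, adjusted p = 0.035). This call was lost with no filter (limma, adjusted p = 0.114), with the 2 groups fitted alone (0.0737) and without control replicate 3 (0.0746), control replicate 4 (0.0758), fraction replicate 3 (0.0775), fraction replicate 4 (0.0511) or magnolin replicate 4 (0.139). The ratio of ANKRD1 to CTGF was 0.432 and 0.460 in the control libraries, 0.990 and 1.45 with magnolin and 0.991 and 0.950 with the fraction.

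**Figure D1:**
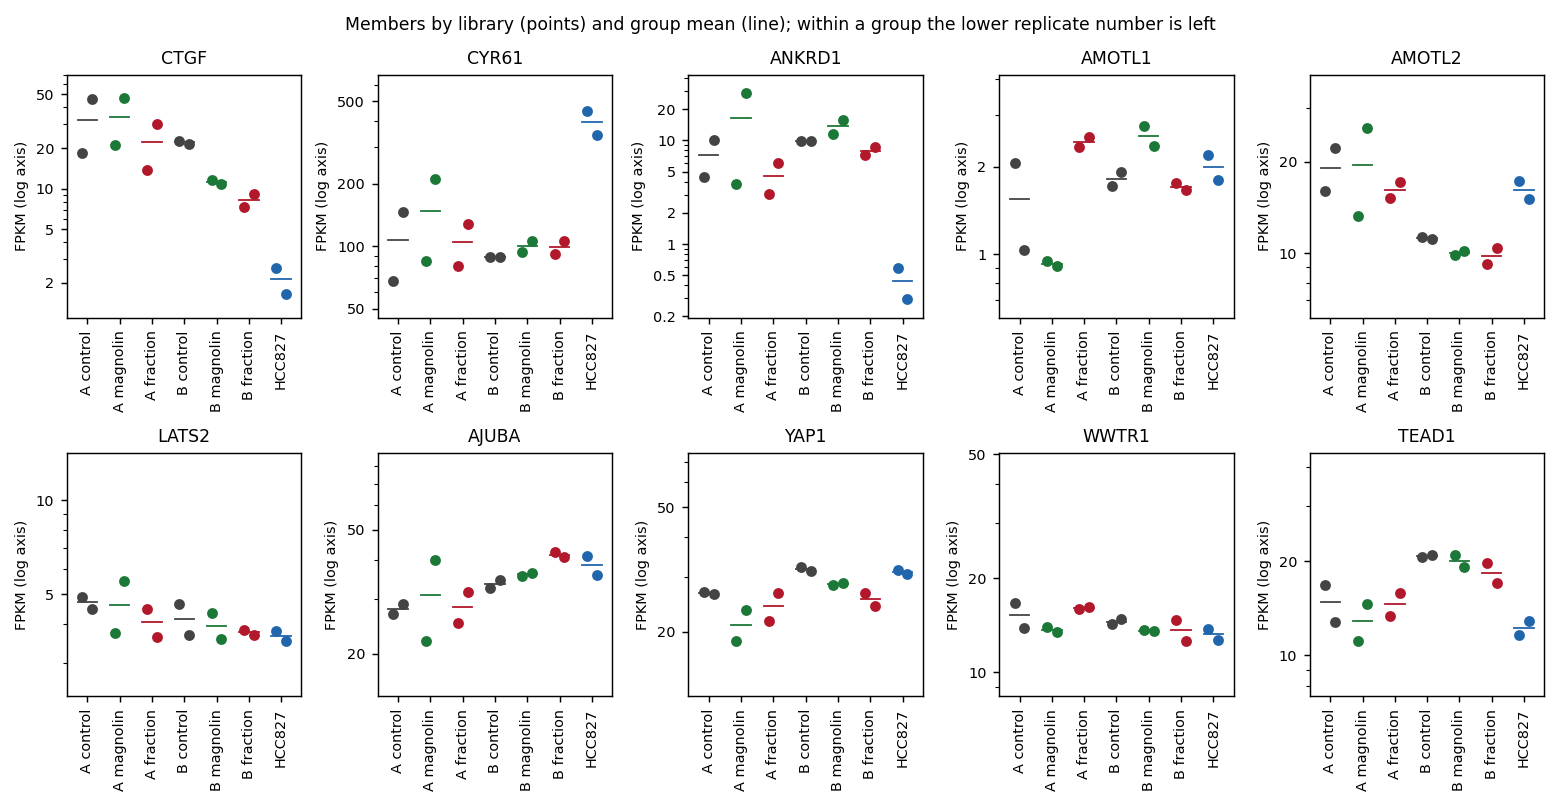
FPKM on a log axis of the 10 members in each of 14 libraries (points) with the group mean (line), for sets A and B of NCI-H1975 and for HCC827. CTGF steps down from control (22.7 and 21.6) to magnolin to fraction (7.32 and 9.08) in set B, while the replicates of set A lie far apart for the 3 target genes.

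Among the regulators, AJUBA, a LIM protein that restrains LATS kinases, was the only one that passed a test in the fits as designed. AJUBA was at 32.5 and 34.5 FPKM in the set B control libraries, 35.6 and 36.2 with magnolin and 42.3 and 40.8 with the fraction. The 3 groups did not overlap. The fraction group rose by 0.30 (SE 0.0683, limma, adjusted p = 0.0304), from 33.5 ± 1.37 to 41.5 ± 1.07 FPKM (SD, n = 2 each), while magnolin differed from control by 0.10 (SE 0.0683, limma, adjusted p = 0.583). Between the treatments the fraction was higher than magnolin by 0.20, which missed the threshold (limma, adjusted p = 0.0975) but passed when limma was run with voom on rebuilt reads (0.25, adjusted p = 0.0329). The rise against control was lost with the 2 groups alone (limma, adjusted p = 0.0759) and on leaving out replicate 3 (0.181) or 4 (0.124) of the control or replicate 3 (0.0798) or 4 (0.0805) of magnolin.

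AMOTL1, which binds YAP and TAZ at cell junctions, was at 1.72 and 1.92 FPKM in the set B control libraries, 2.76 and 2.35 with magnolin and 1.76 and 1.66 with the fraction. The magnolin libraries were the highest and the fraction libraries overlapped the controls. Magnolin differed from control by 0.34 (SE 0.127, limma, adjusted p = 0.319) and the fraction by -0.06 (SE 0.127, limma, adjusted p = 0.785). The fraction differed from magnolin by -0.39 (SE 0.127, limma, adjusted p = 0.0906), a difference that passed with voom on rebuilt reads (-0.54, adjusted p = 0.0153).

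AMOTL2, its relative and itself a YAP target, was at 11.3 and 11.2 FPKM in the control libraries of set B, 9.89 and 10.2 with magnolin and 9.20 and 10.4 with the fraction. All treated libraries lay below the controls. The differences were -0.18 for the fraction (SE 0.0847, limma, adjusted p = 0.193) and -0.15 for magnolin (SE 0.0847, limma, adjusted p = 0.508).

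LATS2, the kinase that phosphorylates YAP and TAZ, was at 4.65 and 3.71 FPKM in the control libraries, 4.34 and 3.59 with magnolin and 3.84 and 3.71 with the fraction. All groups overlapped. The differences from control were -0.11 for the fraction (SE 0.128, 95% interval -0.42 to 0.20) and -0.06 for magnolin (SE 0.128, 95% interval -0.37 to 0.25).

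YAP1, the co-activator that gives the pathway its name, lies on chromosome 11 from 102110461 to 102233423 on the plus strand. YAP1 was at 32.2 and 31.3 FPKM in the set B control libraries, 28.1 and 28.6 with magnolin and 26.6 and 24.2 with the fraction. The 3 groups did not overlap, with the fraction lowest. The fraction group fell by 0.31 (SE 0.0752, limma, adjusted p = 0.0359), from 31.7 ± 0.629 to 25.4 ± 1.72 FPKM (SD, n = 2 each), and magnolin differed from control by -0.16 (SE 0.0752, limma, adjusted p = 0.427). Between the treatments the difference was -0.16 (SE 0.0752, limma, adjusted p = 0.207). The fall was lost with no filter (limma, adjusted p = 0.0638), with the 2 groups alone (0.0821) and on leaving out replicate 3 (0.181) or 4 (0.162) of the control or replicate 3 (0.0855) or 4 (0.0858) of magnolin.

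WWTR1, the gene of TAZ, was the steadiest member, between 12.6 and 16.6 FPKM over all 12 NCI-H1975 libraries. In set B the control libraries were at 14.3 and 14.8 FPKM, magnolin at 13.7 and 13.6 and the fraction at 14.7 and 12.6. The magnolin libraries lay just below the controls and the fraction libraries overlapped both groups. The differences from control were -0.09 for the fraction (SE 0.0899, 95% interval -0.31 to 0.13) and -0.09 for magnolin (SE 0.0899, 95% interval -0.31 to 0.13). The ratio of YAP1 to WWTR1 was 2.25 and 2.12 in the control libraries, 2.06 and 2.11 with magnolin and 1.81 and 1.92 with the fraction.

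TEAD1, the DNA-binding partner, was at 20.7 and 21.0 FPKM in the control libraries of set B, 21.0 and 19.1 with magnolin and 19.8 and 17.0 with the fraction. Fraction libraries lay below the controls, and magnolin overlapped both groups. The differences were -0.18 for the fraction (SE 0.0951, limma, adjusted p = 0.248) and -0.06 for magnolin (SE 0.0951, limma, adjusted p = 0.838).

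**Figure D2:**
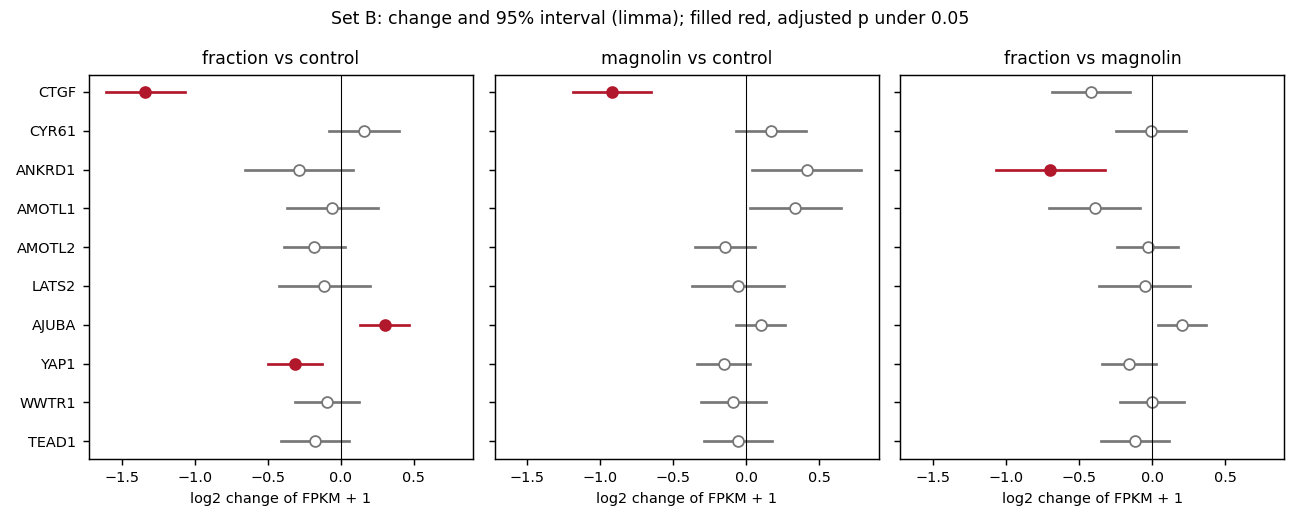
Change on the log2(FPKM + 1) scale with its 95% interval (limma, set B, 2 libraries per group) for each member and comparison, filled red where the adjusted p is under 0.05. CTGF has the largest change against control with both treatments, at -1.34 and -0.92, and ANKRD1 the largest between the treatments, at -0.70.

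Counted over the 10 members of set B, 3 passed for the fraction against control (CTGF and YAP1 lower, AJUBA higher), 1 for magnolin against control and 1 for the fraction against magnolin. Over all 14673 genes tested by limma, 19.9% passed for the fraction against control, 0.627% for magnolin against control and 14.9% for the fraction against magnolin. Groups did not overlap for 7, 8 and 5 members in these comparisons, and for 61.9%, 52.3% and 59.6% of all genes. The median change of the members was -0.14, -0.06 and -0.09, against -0.01, 0.01 and -0.02 over all genes. By p-value CTGF ranked 174th of 14673 genes for the fraction against control and 62nd for magnolin against control.

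Set A gave no calls in the fits as designed. CTGF was at 18.4 and 46.3 FPKM in its control libraries, 21.0 and 46.8 with magnolin and 13.8 and 30.4 with the fraction. Replicate 2 was higher than replicate 1 in every group, by 2.51, 2.22 and 2.20 times, and the groups overlapped. The fraction differed from control by -0.49 (SE 0.621, limma, adjusted p = 1) and magnolin by 0.10 (SE 0.621, limma, adjusted p = 1). The signs of these changes turned when single libraries were left out. The fraction change was 0.15 without control replicate 2 and 0.05 without fraction replicate 1. The magnolin change was -0.54 without control replicate 1 and -0.46 without magnolin replicate 2. With 1 library left out, the groups no longer hold the same replicate numbers, so these values also carry the difference between replicates 1 and 2. Within each replicate number CTGF was lower with the fraction than in control.

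CYR61 and ANKRD1, the other textbook target genes, split by replicate number in the same way. The summed level of 17 further YAP and TAZ targets, described below, went the other way. It was 401, 311 and 386 FPKM in replicate 1 of control, magnolin and fraction, and 189, 206 and 215 in replicate 2. CYR61 was at 67.8 and 146 FPKM in the set A control libraries, 85.3 and 210 with magnolin and 80.0 and 129 with the fraction. ANKRD1 was at 4.41 and 10.2, 3.79 and 28.8, and 3.07 and 6.04 FPKM in the same order of groups. Replicate 2 of the magnolin group held the highest level of both genes, and for ANKRD1 it was 7.60 times replicate 1. For the fraction against magnolin, ANKRD1 differed by -1.16 (SE 0.877, limma, adjusted p = 1), and by 0.16 without magnolin replicate 2. The ratio of CYR61 to CTGF in set A was 3.68 and 3.17 in control, 4.06 and 4.49 with magnolin and 5.78 and 4.23 with the fraction. All treated libraries lay above the controls in this ratio, as in set B, but the treated groups overlapped each other. The ratio of ANKRD1 to CTGF was between 0.180 and 0.240 in 5 of the 6 libraries of set A and 0.615 in magnolin replicate 2.

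**Figure D3:**
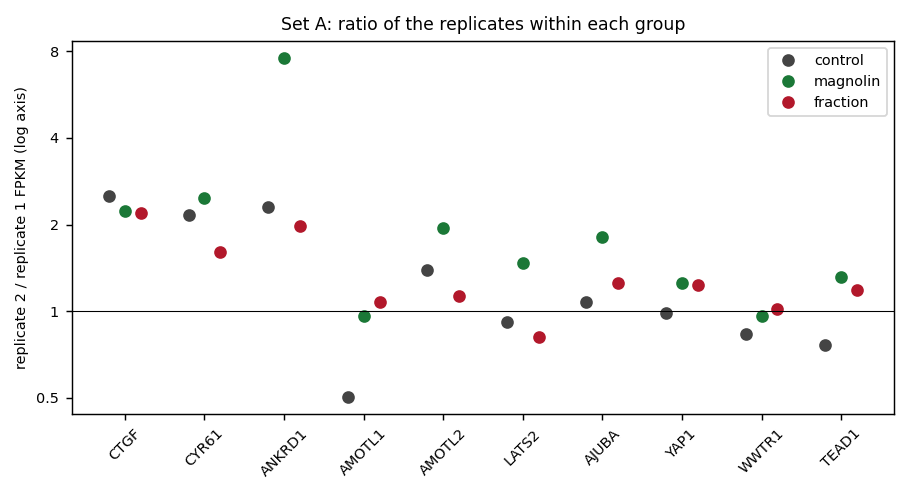
Ratio of replicate 2 to replicate 1 in FPKM (log axis) for each member in the 3 groups of set A. CTGF, CYR61 and ANKRD1 lie between 1.61 and 7.60 in all groups, whereas WWTR1 lies between 0.833 and 1.02.

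Among the other members of set A, AMOTL2 was higher in replicate 2 of each group, by 1.39, 1.94 and 1.12 times in control, magnolin and fraction. AJUBA followed with 1.08, 1.82 and 1.26 times. The ratio was 0.986, 1.26 and 1.23 for YAP1, and 0.761, 1.31 and 1.19 for TEAD1, so both were lower in replicate 2 of the control and higher in replicate 2 of the treated groups. LATS2 (0.916, 1.47 and 0.816), WWTR1 (0.833, 0.962 and 1.02) and AMOTL1 (0.504, 0.960 and 1.07) showed no common direction. AMOTL1 was at 2.06 and 1.04 FPKM in the control libraries, 0.948 and 0.910 with magnolin and 2.35 and 2.52 with the fraction, so that magnolin was lowest and fraction highest, and neither overlapped the controls.

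The replicate numbers of set A also stood apart in epithelial markers. The summed level of the 10 epithelial markers was 1166, 1120 and 1317 FPKM in replicate 1 of the control, magnolin and fraction groups, and 583, 395 and 428 FPKM in replicate 2. EPCAM ranged from 172 to 193 FPKM in the replicate 1 libraries and from 9.62 to 14.4 in the replicate 2 libraries. Their part in the levels of the target genes was not tested.

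Over the 13103 genes tested in set A, limma called 0% in each of the 3 comparisons. An unadjusted p under 0.05 was reached by 107 genes for the fraction against control, 255 for magnolin against control and 93 between the treatments, and voom on rebuilt reads also called 0 genes. At an unadjusted p under 0.05 there was 1 member, AMOTL1 for the fraction against magnolin (2.43 ± 0.124 against 0.929 ± 0.0268 FPKM, SD, n = 2 each, limma, adjusted p = 1).

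When both sets were fitted together with a term for the set, CTGF differed from control by -0.91 with the fraction (SE 0.355, limma, adjusted p = 0.446) and by -0.41 with magnolin (SE 0.355, limma, adjusted p = 1). CTGF was lower with the fraction in 4 of 4 replicate numbers and lower with magnolin in 2 of 4. ANKRD1, AMOTL2 and LATS2 were also lower with the fraction in 4 of 4. With magnolin CYR61 was higher and WWTR1 lower in 4 of 4. Such counts match libraries by numbers that were not taken as pairs, and the share over all genes was not counted. YAP1 differed by -0.23 with the fraction (SE 0.119, limma, adjusted p = 0.55) and by -0.24 with magnolin (SE 0.119, limma, adjusted p = 1), and was lower in 3 of 4 and 4 of 4 replicate numbers. Of 15428 genes, 0.00648% passed for the fraction and 0% for magnolin by limma. For magnolin an unadjusted p under 0.05 was reached by 693 genes. Of the members 0 passed in these fits. An unadjusted p under 0.05 was reached by CTGF for the fraction and by no member for magnolin.

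Whether a change differed between the sets was tested by an interaction term, which called 0% of 15428 genes for the fraction and 0% for magnolin (limma, with 746 and 647 genes at an unadjusted p under 0.05). For CTGF the change in set B minus that in set A was -0.85 with the fraction (SE 0.709, 95% interval -2.46 to 0.76) and -1.02 with magnolin (SE 0.709, 95% interval -2.63 to 0.59). These intervals are wide, so the data show neither that the sets differ nor that they do not. The fit held no term for the replicate number, so the spread between replicates 1 and 2 of set A enters these SEs. Among the members, AMOTL1 with magnolin had the smallest p, with a difference of 0.71 (SE 0.282, limma, adjusted p = 1), since its level was above control in set B and below it in set A.

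Parental HCC827 cells held little CTGF and ANKRD1 and much CYR61. CTGF was at 2.59 and 1.65 FPKM and ANKRD1 at 0.583 and 0.292, which is 19 and 10 rebuilt reads, below every NCI-H1975 library. CYR61 was at 449 and 345 FPKM, above every NCI-H1975 library, and the ratio of CYR61 to CTGF was 173 and 208. Of the complex itself, YAP1 (31.5 and 30.6 FPKM) and WWTR1 (13.8 and 12.7) were at levels like those of NCI-H1975. TEAD1, at 11.6 and 12.9, lay at the low end of its NCI-H1975 range of 11.1 to 21.0. The regulators were within or near the NCI-H1975 range as well, with AJUBA at 41.3 and 35.7, AMOTL2 at 17.2 and 15.1, LATS2 at 3.81 and 3.54 and AMOTL1 at 2.20 and 1.80 FPKM. HCC827 was scaled in a table of its own, so no test was made. From high to low the mean levels in HCC827 ran CYR61, AJUBA, YAP1, AMOTL2, WWTR1, TEAD1, LATS2, CTGF, AMOTL1 and ANKRD1, and the libraries of CTGF and AMOTL1, and of WWTR1 and TEAD1, overlapped.

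**Figure D4:**
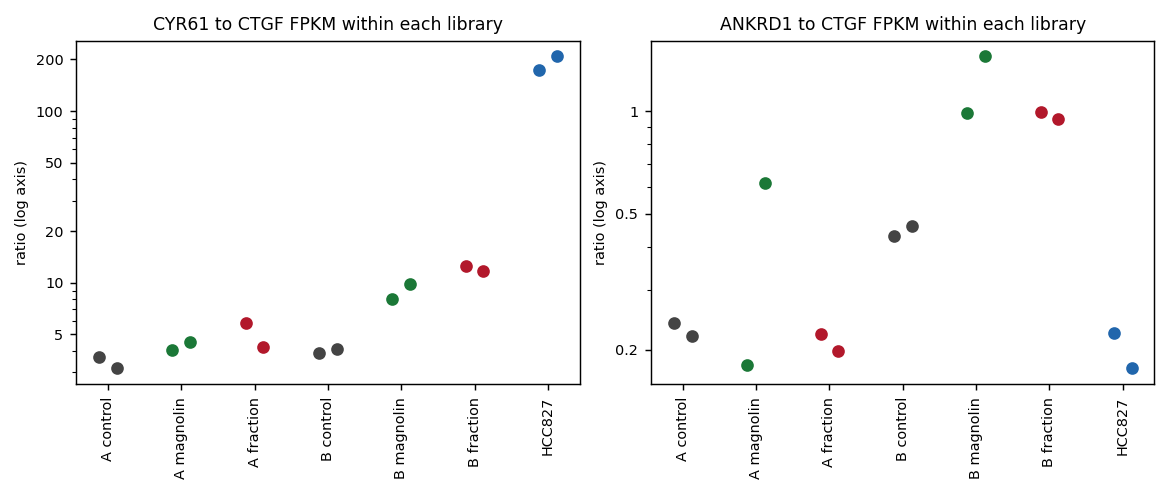
Ratio of CYR61 to CTGF and of ANKRD1 to CTGF in FPKM within each of 14 libraries (log axes). In set B the first ratio is 3.90 and 4.10 in control and 12.6 and 11.7 with the fraction, and in HCC827 it is 173 and 208.

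The counts in wider lists of the pathway are for set B unless said otherwise, and stand against 1222 genes higher and 1696 lower (19.9%) over all genes for the fraction against control, and 0.627% for magnolin against control. Of 24 Hippo kinases and upstream regulators, 21 were tested in set B, and for the fraction against control 1 rose and 2 fell. CSNK1E, a casein kinase that acts on YAP after LATS, rose from 7.58 ± 0.513 to 11.8 ± 1.39 FPKM (log2 change 0.57, limma, adjusted p = 0.019). The protocadherin FAT1 fell from 29.7 ± 0.0642 to 18.6 ± 0.600 FPKM (-0.65, limma, adjusted p = 0.00766), and WWC1, the scaffold KIBRA, fell from 10.8 ± 0.0868 to 7.69 ± 0.689 (-0.44, limma, adjusted p = 0.0179). The median change of the list was -0.12 against -0.01 over all genes. Magnolin against control gave 0 calls by limma, with 2 genes at an unadjusted p under 0.05 and 1 call by voom (FAT1), and the comparison of the treatments gave 0, with 5 such genes and 3 calls by voom.

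Of 7 further TEAD and VGLL genes 4 were tested. TEAD2 fell from 8.70 ± 0.645 to 4.74 ± 0.386 FPKM with the fraction (-0.76, limma, adjusted p = 0.00509) and was at 6.17 ± 0.358 with magnolin (-0.44, limma, adjusted p = 0.132), where 0 of the 4 passed by limma, 3 had an unadjusted p under 0.05 and voom called TEAD2. TEAD3 was higher with the fraction than with magnolin, at 6.16 ± 0.646 against 4.26 ± 0.299 FPKM (0.44, limma, adjusted p = 0.0363). VGLL1, VGLL2 and VGLL3, cofactors that compete for TEAD, were at or near 0 in NCI-H1975. VGLL4, the remaining VGLL gene of the list, was at 2.79 to 4.74 FPKM there. With the fraction it differed from control by -0.03 (limma, adjusted p = 0.901).

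Further YAP and TAZ targets did not share a direction. Of 17 genes 15 were tested in set B, and with the fraction 3 rose and 3 fell. IGFBP3, which binds insulin-like growth factors, rose from 5.28 ± 0.485 to 14.9 ± 0.181 FPKM (1.34, limma, adjusted p = 0.000833). NT5E, the ectonucleotidase CD73, rose from 14.0 ± 1.54 to 29.8 ± 3.31 (1.04, limma, adjusted p = 0.00348), and F3, tissue factor, from 26.2 ± 1.11 to 42.8 ± 2.68 (0.69, limma, adjusted p = 0.00508). TGFB2, a growth factor, fell from 10.2 ± 0.309 to 4.31 ± 0.183 FPKM (-1.07, limma, adjusted p = 0.00206). NUAK2, a kinase, fell from 3.10 ± 0.0961 to 1.58 ± 0.185 (-0.67, limma, adjusted p = 0.0293), and CRIM1, a membrane protein that binds growth factors, from 28.3 ± 0.903 to 22.8 ± 1.65 (-0.30, limma, adjusted p = 0.0449). The list median was -0.08 against -0.01. With magnolin 0 of 15 passed against control by limma, 7 had an unadjusted p under 0.05 and voom called 3, CCDC80, NT5E and TGFB2, while IGFBP3 was at 4.99 ± 0.291 FPKM, near its control level. Between the treatments IGFBP3 (1.41, limma, adjusted p = 0.00142) and F3 (0.45, limma, adjusted p = 0.0256) were higher with the fraction and TGFB2 lower (-0.47, limma, adjusted p = 0.0322).

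Genes of the actin cytoskeleton that respond to SRF, a factor whose targets partly overlap those of YAP, were given for comparison. Of 17 genes 15 were tested in set B, and with the fraction 5 fell and 2 rose, with a list median of -0.28 against -0.01. MYL9, a myosin light chain, fell from 12.8 ± 0.244 to 4.56 ± 1.13 FPKM (-1.33, limma, adjusted p = 0.0031), and the actin-binding calponin CNN2 from 52.8 ± 1.91 to 29.6 ± 3.84 (-0.82, limma, adjusted p = 0.00493). ACTB, cytoplasmic actin, fell from 2096 ± 8.32 to 1419 ± 67.5 FPKM (-0.56, limma, adjusted p = 0.00348), and VCL, vinculin, from 34.5 ± 0.897 to 23.2 ± 0.616 (-0.55, limma, adjusted p = 0.00472). FLNA, filamin A, rose from 399 ± 7.03 to 707 ± 95.01 (0.82, limma, adjusted p = 0.00452), and FHL1, a LIM protein, from 2.25 ± 0.465 to 4.67 ± 0.270 (0.81, limma, adjusted p = 0.01). By voom 11 of the 15 passed with the fraction. With magnolin 0 of 15 passed against control by limma, 7 had an unadjusted p under 0.05 and voom called 5, which were ACTB, TAGLN, CNN2, MYL9 and TPM2. MYL9 was at 5.94 ± 0.255 FPKM with magnolin (-0.997, limma, adjusted p = 0.0567). Between the treatments FLNA (0.81), FHL1 (0.70) and TPM2, a tropomyosin (0.48), were higher with the fraction, while ACTB (-0.35) and VCL (-0.32) were lower.

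In set A the same lists gave 0 calls in each of the 3 comparisons, by limma as designed or by voom on rebuilt reads. For the fraction against control 0 of their genes had an unadjusted p under 0.05 by limma. IGFBP3, which rose in set B, was at 3.90 ± 1.84 FPKM with the fraction and 4.34 ± 0.239 in control (-0.18), and MYL9, which fell in set B, was at 10.6 ± 4.56 and 9.82 ± 1.85 FPKM (0.06). TGFB2 was at 7.02 ± 1.34 and 11.4 ± 1.52 FPKM (-0.63), and FLNA at 363 ± 171 and 252 ± 103 (0.50), each with the sign it had in set B. In the test of the difference between the sets over all genes, which held no replicate term, 0 of 15428 passed (limma), these genes included.

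**Figure D5:**
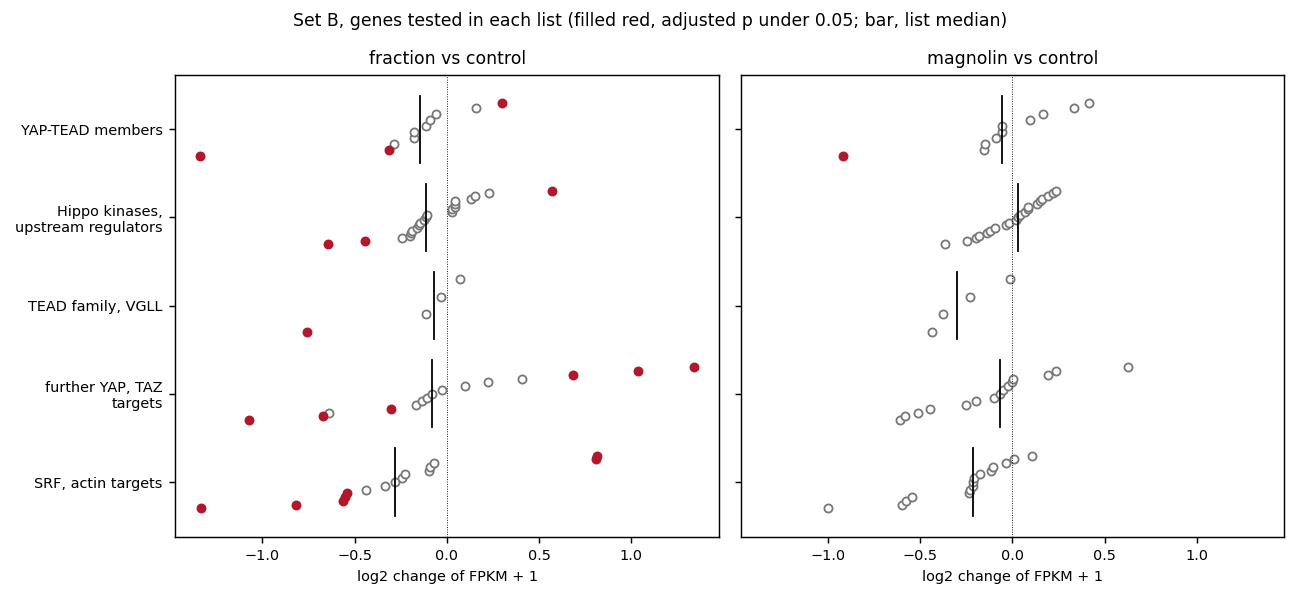
Change on the log2(FPKM + 1) scale of each tested gene in 5 lists, for the fraction and for magnolin against control in set B, filled red where the adjusted p is under 0.05 (limma), with the list median as a bar. With the fraction, calls lie on both sides of 0 in 4 of the lists, and CTGF is the only call by limma with magnolin.

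Markers of cell type moved with the treatments of set B too. The summed level of 10 epithelial markers was 616 to 623 FPKM in the control libraries, 443 to 448 with magnolin and 412 to 452 with the fraction. KRT8 and KRT18, keratins of simple epithelia, fell with the fraction (-0.87 and -0.75, limma, adjusted p = 0.000833 and 0.00178) and with magnolin (-0.53 and -0.51, limma, adjusted p = 0.0276 and 0.0402). They were the only calls by limma against control among 7 markers tested. With the fraction NKX2-1 differed by -0.34, KRT19 by -0.33, CDH1 by -0.18, EPCAM by -0.07 and KRT7 by 0.10. By voom KRT19 passed as well with the fraction, and EPCAM, KRT7, KRT19 and CDH1 with magnolin. Between the treatments CDH1 (0.45), EPCAM (0.44) and KRT7 (0.44) were higher with the fraction, and KRT8 was lower (-0.34). The 7 fibroblast markers summed to 19.7 to 25.2 FPKM in control, 15.1 to 15.5 with magnolin and 9.85 to 10.5 with the fraction, of which COL1A2, a collagen chain, made up the most, while DCN, COL3A1 and PDGFRA were at or near 0. COL1A2 (-1.08) and COL1A1 (-0.51) fell with the fraction in set B, and COL1A2 was lower with the fraction than with magnolin (-0.56, limma, adjusted p = 0.0433). In set A neither passed with the fraction, and their values had the other sign (0.27 and 0.24). The 7 leukocyte and endothelial markers summed to 4.64 to 6.46 FPKM in control, 1.99 to 2.19 with magnolin and 1.11 to 1.20 with the fraction, and CDH5, an endothelial cadherin, fell from 3.73 ± 0.934 to 0.111 ± 0.0862 with the fraction. Whether these shifts, or the larger mitochondrial share, have a part in the changes of CTGF, AJUBA and YAP1 was not tested.

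The genes most like each target across the 12 NCI-H1975 libraries were sought among 7055 protein-coding genes with a mean of at least 5 FPKM. The measure was the root mean square difference in log2(FPKM + 1) after each gene's mean in each set was removed. For CTGF, whose own spread by this measure was 0.602, they were MMP24 (0.185), SGK1 (0.190) and ARRB1 (0.194). SGK1 was at 6.31 and 6.42 FPKM in the set B control libraries, 3.44 and 3.78 with magnolin and 2.70 and 2.26 with the fraction. This is the order seen for CTGF, but SGK1 was chosen for its likeness over these same libraries, so the order is no separate result. For CYR61, with a spread of 0.405, they were POFUT2 (0.1005), NCSTN (0.115) and DNASE2 (0.118). For ANKRD1, with a spread of 0.724, they were DAG1 (0.392), TAPBP (0.394) and XXYLT1 (0.395), so no candidate followed ANKRD1 as closely as those named followed CTGF or CYR61.

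Reads of overlapping genes could not be told apart where the strand used in counting is unknown. CYR61 and ANKRD1 overlap no other gene in the deposited annotation. CTGF overlaps AL133346.1, an antisense gene at no more than 0.539 FPKM in any library, and the highest level of any gene overlapping a member was 2.71 FPKM, for MIR6827 within AMOTL2.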

How the data were processed

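RNA was sequenced from NCI-H1975 cells (control, magnolin and chloroform fraction, 4 libraries each) and HCC827 cells, with library reagents from NEB per the labels' protocols. The authors deposited FPKM per gene in 3 tables, and the submitters' processing notes name hg38. Which aligner, counter and strand setting were used is not given in the sources used here. Column names matched the sample labels except for 2 columns, which were not used, so the planned comparison of resistant with parental HCC827 cells was not run. Because FPKM is not a count, values were tested as log2(FPKM + 1) with limma 3.58.1 in R 4.3.3 (eBayes with a trend), among genes with at least 1 FPKM in at least 2 libraries, two-sided, with Benjamini-Hochberg adjustment over all genes tested and a threshold of 0.05. The 3 groups of a set shared 1 estimate of the spread. A fold on this scale understates the change of low genes. Reads were rebuilt from FPKM and gene length: 100% of values up to 2000 reads were whole within 0.05, and voom on these reads was an alternative. The script was tested on simulated data.

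The groups carry the same replicate numbers. Same-numbered libraries deviated from their group means with correlations of 0.742 to 0.781 within set A and -0.028 to 0.030 within set B. No label says that a number marks a shared batch, and with 2 numbers per set they were not taken as pairs, so the fit with a replicate block is given once, in the closing section. Alternatives were another pseudocount of 0.1, other filters, the block, the 2 groups alone, voom and leaving out each library.

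The members and lists were chosen with earlier results of these data known. All members were named, with up to 4 called genes of each direction per list in set B and the 3 genes most like each target. Promoter sequences are from RefSeq.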

Additional observations from a re-analysis of the deposited data

Results flagged for a closer look

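The level of each member in each NCI-H1975 group of 4 libraries was checked for a library far from the other 3, in 30 groups, and 3 stood apart by Dixon's criterion. Chance gives about 1 in 20. These groups span sets A and B, which were scaled separately. CTGF was at 46.3 FPKM in control replicate 2, the highest of the controls. CYR61 was at 210.2 FPKM in magnolin replicate 2, the highest with magnolin. ANKRD1 was at 4.41 FPKM in control replicate 1, the lowest of the controls. All of them lie in set A, where the replicate numbers differ in the targets and in epithelial markers.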

How the results depend on the processing

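The recomputed values tallied here are the counts of calls and the member changes given in the text. Member changes not given there are outside this tally, and some of those turned direction as well. Over 649 such values, 389 of the changes kept their direction and their side of the threshold. Of the other changes, 26 lost the threshold, 4 gained it and 10 turned direction. Of the counts, 163 stayed within 1.5 times and 57 moved further. The cause was not tested.

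In set B, genes called for the fraction against control were 2918, and 1598 with no filter, with a range of 728 to 3174 when 1 library was left out (lowest without control replicate 4). Members called were 3, and 1 with the replicate block, 1 with the 2 groups alone and 1 to 3 with a library left out. For magnolin against control, 92 genes became 0 with no filter, 218 with a mean of at least 5 FPKM, 43 with the block, 165 with the 2 groups alone, 577 with voom and 0 to 154 with a library left out (0 without either control or either magnolin library). The 1 member called became 0 with no filter, 0 with the block and 0 to 1 with a library left out. For the fraction against magnolin, 2188 genes became 752 with no filter, 1311 with the block, 1034 with the 2 groups alone, 3311 with voom and 226 to 3017 with a library left out. The 1 member called became 0 with no filter, 2 with a mean of at least 5 FPKM, 0 with the 2 groups alone, 3 with voom and 0 to 1 with a library left out. Under the block set A gave 24, 130 and 24 genes for the fraction against control, magnolin against control and fraction against magnolin, in place of 0.

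With both sets together, the 1 gene called for the fraction became 24 with the block, 0 with no filter and 0 to 17 with a library left out, and for magnolin 0 became 0 to 1.

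The ranges here are those of member changes given in the text that turned direction with a library left out. In set B with the fraction they were -0.24 to 0.019 for LATS2 and -0.19 to 0.011 for WWTR1. With magnolin they were -0.19 to 0.072 for LATS2 and -0.12 to 0.0061 for TEAD1. In set A they were -1.13 to 0.15 for CTGF with the fraction, -0.54 to 0.74 for CTGF with magnolin, and -2.48 to 0.16 for ANKRD1 between the treatments. A fit without 1 library of set A also carries the difference between replicates 1 and 2. Changes not given in the text turned in some alternatives too. Examples in set A are CYR61 with the fraction (-0.53 to 0.57) and with magnolin (-0.22 to 1.07). In set B between the treatments, CYR61 (-0.11 to 0.095), WWTR1 (-0.10 to 0.099) and AMOTL2 (-0.11 to 0.051) are others. With 2 libraries per group, small changes and low genes such as AMOTL1 and LATS2 are the least certain, and the planned comparison of resistant HCC827 cells was not run.

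The replicate numbers pair no libraries by the labels. The check gave correlations near 0 within set B (-0.028 to 0.030) but of 0.742 to 0.781 within set A. Values of 0.290 to 0.840 over all 4 numbers also carry the difference between the sets. With the replicate block in set B, AJUBA (limma, adjusted p = 0.0635) and YAP1 (0.0646) with the fraction and CTGF with magnolin (0.0759) no longer passed, while CTGF with the fraction (0.00536) and ANKRD1 between the treatments (0.0348) passed. In both sets together, CTGF with the fraction had an adjusted p of 0.0898 with the block (limma). Within set A the block gave the CTGF changes an SE of 0.199 in place of 0.621, and 0 members passed. Of the wider lists, FHL2 passed there with magnolin (limma, adjusted p = 0.0434).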
